A study of Sus scrofa with 8 samples.

Results

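BIRC7, FRS2, TMEM71, KBTBD8 and TAS2R39 are genes whose reads in dorsal subcutaneous fat were scarce in 1 of 2 Portuguese pig breeds, Alentejano (AL) or Bísaro (BI). These 5 genes were picked out of the 458 for which a value of each animal was used here, because their difference between the breeds was among the widest. The breed difference of these genes is therefore given as a description and not tested. Being 1 of the 458 also required that the authors had called the gene different between the breeds in the same animals. BIRC7, FRS2 and TMEM71 were higher in AL, and KBTBD8 and TAS2R39 were higher in BI.

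The groups were 4 AL pigs (numbers 44, 49, 52 and 63) and 4 BI pigs (numbers 25, 34, 36 and 37), with 1 RNA library per pig. Housing (free range), feed (commercial, at will) and sex (castrated males) were common to both breeds, and no pig was a crossbred. The labels give a carcass weight of 150 kg for every pig. According to the study's methods, AL pigs had on average spent more days on trial than BI pigs. No other treatment separated the groups. The values are normalized counts, which are the reads assigned to a gene divided by a size factor of that pig. In every pig, 100% of the 458 values were whole multiples of 1 step within 0.001 read, and reads were recovered on that basis. Low counts are few in this table, with 0 to 3 genes per pig at exactly 1 read, so the size of a step rests on all values of the pig having no larger step in common. In BI 37 the smallest count was 2 reads. A single read was worth 1.48, 0.907, 1.08 and 1.33 normalized counts in AL 44, 49, 52 and 63. In BI 25, 34, 36 and 37 it was worth 0.765, 0.687, 0.945 and 0.833. A count of 1 read therefore weighed more in 3 of the AL pigs than in any BI pig. Between 359708 and 883622 reads per pig fell on the 458 genes. The strand on which reads were counted was not given in the sources used here, so a value is the reads assigned to a gene name and may not be RNA of that gene's own strand.

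Adipocytes, the fat-storing cells of this tissue, lie among vessels, fibroblasts and immune cells, and a bulk sample sums the RNA of all of them. Fewer cells of a type and less RNA per cell cannot be told apart in such a sample. BIRC7, also called livin, is a member of the inhibitor of apoptosis family, whose proteins bind caspases and restrain cell death. FRS2 is a docking protein that links activated fibroblast growth factor (FGF) receptors to the Ras and MAP kinase cascade. KBTBD8 is an adaptor of the cullin-3 ubiquitin ligase, and TAS2R39 belongs to the bitter taste receptors, which signal through G proteins. TMEM71 is a predicted membrane protein with no established function.

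All 5 genes were placed by symbol in the RefSeq annotation of Sscrofa11.1, the build to which the reads had been aligned. BIRC7 lies on the forward strand at chr17:62351663-62356220 with 8 exon blocks, and FRS2 on the forward strand at chr5:33725432-33852952 with 12. TMEM71 is at chr4:8467572-8516316 with 13 exon blocks and KBTBD8 at chr13:48486919-48499992 with 4, both on the forward strand. TAS2R39 consists of 1 exon on the reverse strand at chr18:7068087-7069798. The 250 bases that precede the annotated start are shown for BIRC7 and FRS2, the genes with the widest distance between the breeds. They come from the reference genome and not from the AL or BI pigs, so they show where a difference between the breeds could be looked for and not whether there is any. Capitals mark every match, on either strand, to TATAAA (the TATA box), to CCAAT (the CCAAT box), to GGGCGG (the GC box) or to the E-box CACGTG, and each sequence runs 5′ to 3′ along its gene. The BIRC7 window is chr17:62351413-62351662 (forward) and the FRS2 window chr5:33725182-33725431 (forward).
BIRC7: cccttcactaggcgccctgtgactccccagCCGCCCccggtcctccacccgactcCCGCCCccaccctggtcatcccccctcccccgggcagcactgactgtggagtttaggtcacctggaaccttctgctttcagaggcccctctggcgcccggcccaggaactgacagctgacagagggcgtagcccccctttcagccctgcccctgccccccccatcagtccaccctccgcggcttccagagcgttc
FRS2: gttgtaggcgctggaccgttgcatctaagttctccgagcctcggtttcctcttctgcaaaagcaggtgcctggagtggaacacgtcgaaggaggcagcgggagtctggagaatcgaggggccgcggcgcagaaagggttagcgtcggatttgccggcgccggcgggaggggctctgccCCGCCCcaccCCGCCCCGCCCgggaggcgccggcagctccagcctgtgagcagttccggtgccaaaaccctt
The FRS2 window held 24 CpG and 3 matches to GGGCGG, of which the last pair share 1 base, and the BIRC7 window 12 CpG and 2 such matches. The GC content was 69.2% for BIRC7 and 66.8% for FRS2. Over the 19556 windows of the same length in the annotation, the median was 57.6% GC and 12 CpG. GGGCGG occurred in 45.9% of those windows, CCAAT in 31.9%, TATAAA in 9.77% and CACGTG in 6.39%. Of the windows not printed, TMEM71 had 43.2% GC and 1 match to CCAAT, and KBTBD8 had 64.8% GC, 2 matches to CCAAT and 1 to GGGCGG. A motif match is a run of letters and not a binding site, and no motif was found in all 4 of these windows.

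**Figure D1:**
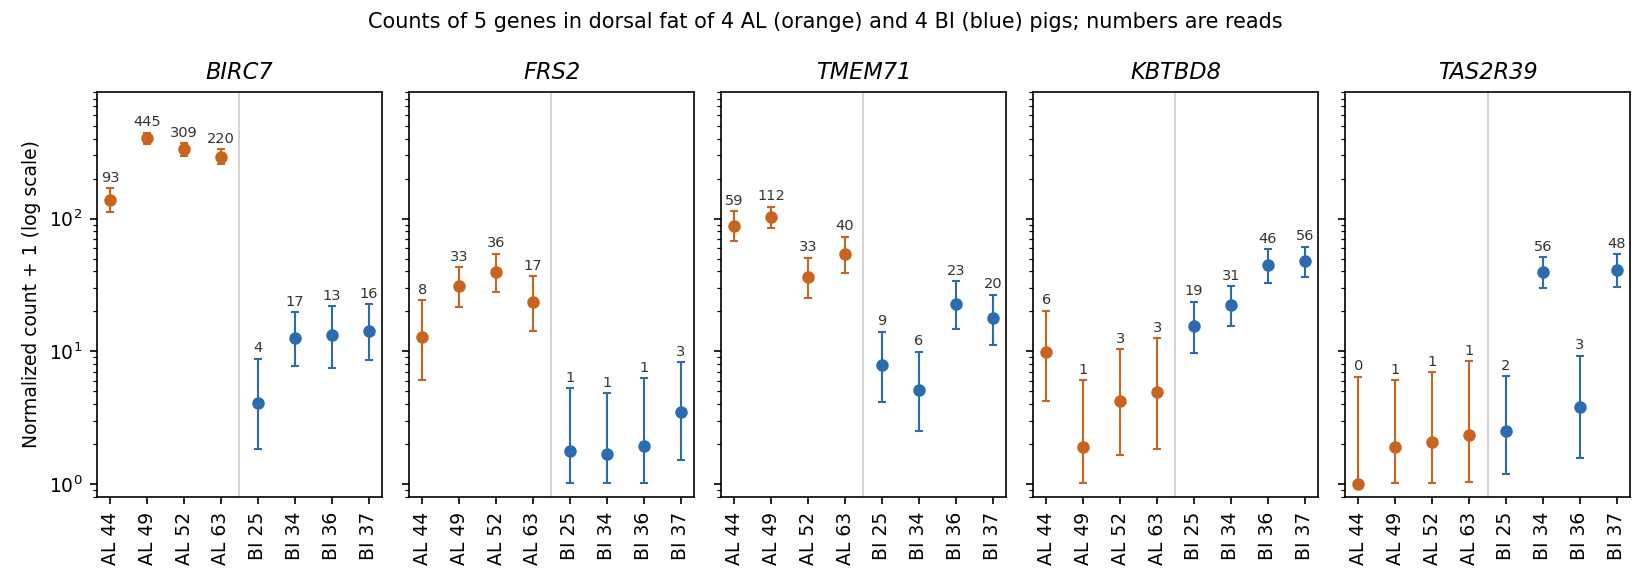
Normalized counts of the 5 genes in each of the 4 AL and 4 BI pigs (vertical log axis of normalized count + 1), with 95% exact Poisson intervals for counting error and the number of reads printed above each point. The BIRC7 points of AL pigs sit between 138 and 404 and those of BI pigs between 3.06 and 13.3, whereas the BI points of TAS2R39 range from 1.53 to 40.

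BIRC7 had the widest difference of the 458 genes. AL 44, 49, 52 and 63 had 93, 445, 309 and 220 reads, which are 138, 404, 332 and 292 normalized counts. BI 25, 34, 36 and 37 had 4, 17, 13 and 16 reads, which are 3.06, 11.7, 12.3 and 13.3 normalized counts. Every AL pig lay far above every BI pig, but the gene was read in all 4 BI pigs, at 50 reads in all. The breed means were 291 ± 112 in AL and 10.1 ± 4.74 in BI (SD, n = 4 each), so that the BI mean was 3.46% of the AL mean. The log2 fold change (log2 FC, the difference of the mean log2(normalized count + 1), AL minus BI) was 4.77 ± 0.55 (SE). The lowest AL pig exceeded the highest BI pig 10.3-fold, and 21.9-fold without AL 44, the AL pig with the least BIRC7. With reads left unscaled by depth, this ratio was 5.47. The 95% exact Poisson interval of each AL pig was separate from that of each BI pig, in 16 of 16 pairs, as in 21.6% of the 458 genes in the direction of AL and 3.06% in that of BI (24.7% together). Such intervals cover counting error only. In AL, BIRC7 was also the member with the highest level per length, at 165 normalized counts per kb of annotated exon. In BI it had 5.72, below the 12.1 of TAS2R39.

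FRS2 was in the range of single reads in BI. AL 44, 49, 52 and 63 had 8, 33, 36 and 17 reads, or 11.9, 29.9, 38.7 and 22.6 normalized counts. BI 25, 34 and 36 had 1 read each and BI 37 had 3, or 0.765, 0.687, 0.945 and 2.5 normalized counts. No BI pig reached the level of the lowest AL pig, and the 4 BI pigs together held 6 reads. The means were 25.8 ± 11.4 in AL and 1.22 ± 0.857 in BI (SD, n = 4 each), a BI level of 4.75% of that in AL. This level was 3.1% without BI 37, 5.71% without AL 52, 6.35% with a median of ratios over the 458 genes, 6.81% with an upper quartile and 6.38% in unscaled reads. The log2 FC was 3.54 ± 0.43 (SE). The lowest AL pig stood 4.74-fold above the highest BI pig. That ratio was 9.03 without AL 44, 12.5 without BI 37 and 2.67 in unscaled reads. Counting intervals were separate in 14 of 16 pairs, since AL 44 (95% interval 5.12 to 23.4 normalized counts) met those of BI 36 (0.0239 to 5.26) and BI 37 (0.516 to 7.31). Per kb of annotated exon the level was 2.96 in AL and 0.141 in BI. The mean of FRS2 over the 8 pigs was 13.5, near the median of 13.7 over the 10710 genes that the authors listed.

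TMEM71 was low but plainly present in BI. AL 44, 49, 52 and 63 had 59, 112, 33 and 40 reads, or 87.4, 102, 35.5 and 53.1 normalized counts. BI 25, 34, 36 and 37 had 9, 6, 23 and 20 reads, or 6.88, 4.12, 21.7 and 16.7 normalized counts. The breeds did not overlap, but BI 36 and BI 37 lay nearer to AL 52 than to BI 34 in log2 units. The means were 69.4 ± 30.4 and 12.4 ± 8.25 (SD, n = 4 each), a BI level of 17.8% of that in AL, and the log2 FC was 2.53 ± 0.61 (SE). The lowest AL pig exceeded the highest BI pig 1.63-fold, and counting intervals were separate in 14 of 16 pairs. Of the annotated TMEM71 exon bases, 160 (4.7%) lie under exons of the lncRNA LOC102161379 on the opposite strand. Its level per kb of annotated exon was 20.4 normalized counts in AL and 3.63 in BI.

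KBTBD8 ran in the other direction, with few reads in AL. AL 44, 49, 52 and 63 had 6, 1, 3 and 3 reads, or 8.89, 0.907, 3.23 and 3.98 normalized counts. BI 25, 34, 36 and 37 had 19, 31, 46 and 56 reads, or 14.5, 21.3, 43.5 and 46.7 normalized counts. The AL pig with the most KBTBD8, AL 44, lay closer to BI 25 than to any other AL pig in log2 units. Its counting interval (3.26 to 19.3 normalized counts) met those of all other AL pigs as well as those of BI 25 and BI 34. The intervals of AL 52 and AL 63 also met that of BI 25, and counting intervals were separate in 12 of 16 pairs. The means were 4.25 ± 3.36 in AL and 31.5 ± 16 in BI (SD, n = 4 each), and the log2 FC was −2.71 ± 0.63 (SE). The AL level was 13.5% of that in BI, or 8.59% without AL 44. The lowest BI pig exceeded the highest AL pig 1.63-fold, or 3.65-fold without AL 44. This ratio was 3.08 with an upper-quartile scaling over the 458 genes, 2.57 with a median of ratios over them and 3.17 in unscaled reads. Per kb of annotated exon KBTBD8 had 0.565 normalized counts in AL and 4.18 in BI.

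TAS2R39 had the lowest mean normalized count of the 5 genes over the 8 pigs (10.8) and the least even pattern. AL 44 had 0 reads and AL 49, 52 and 63 had 1 read each, or 0, 0.907, 1.08 and 1.33 normalized counts. BI 25, 34, 36 and 37 had 2, 56, 3 and 48 reads, or 1.53, 38.5, 2.83 and 40 normalized counts. BI 34 and BI 37 stood far above all other pigs, while BI 25 and BI 36 lay within counting error of the AL pigs. The 0 reads of AL 44 allow a level of up to 4.44 normalized counts (3 reads), which is above the values of BI 25 and BI 36. The 95% intervals of BI 25 (0.242 to 7.22 reads) and BI 36 (0.619 to 8.77 reads) met those of all 4 AL pigs, and 8 of 16 pairs were separate. The means were 0.827 ± 0.578 in AL and 20.7 ± 21.4 in BI (SD, n = 4 each), with a log2 FC of −2.68 ± 1.11 (SE) and an AL level of 4% of that in BI. The ranges missed each other by a ratio of only 1.15, which was 2.13 without BI 25, 2.05 with a median of ratios, 2.41 with an upper quartile and 2 in unscaled reads. The difference of TAS2R39 between the breed means was thus carried by the counts of BI 34 and BI 37. Per kb of annotated exon it had 0.483 normalized counts in AL and 12.1 in BI. The longest exact stretch that TAS2R39 shares with any of 12 other annotated taste receptors was 25 bases, with TAS2R40.

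None of the 5 genes had 0 reads in all pigs of a breed, and neither did any other of the 458. The lower breed held 50 reads of BIRC7, 6 of FRS2, 58 of TMEM71, 13 of KBTBD8 and 3 of TAS2R39 in its 4 pigs together. FRS2 and TAS2R39 were the 2 genes of the 458 with at most 3 reads in every pig of the lower breed, and only they were near absence in each of those pigs. BIRC7, FRS2 and TAS2R39 were the 3 genes whose lower breed had under 5% of the mean of the higher breed. None of the 3 kept this in every setting run. FRS2 exceeded 5% under each other scaling, and BIRC7 was at 5.17% with an upper quartile. The median-of-ratios and upper-quartile factors were set on the 458 called genes alone, so they may take up part of the breed difference. TAS2R39 was at 5.33%, 5.6% and 5.8% without AL 44, BI 34 and BI 37. TMEM71 and KBTBD8, at 17.8% and 13.5%, were among 17 genes under 20%. The median of the 458 genes was 43.5%. An all-or-none pattern would hold the lower breed at no reads and keep both breeds tight beside the distance between them. All 5 genes had breeds that did not overlap, as had 48.3% of the 458 genes in the direction of AL and 31.2% in that of BI, or 79.5% together. The members were chosen on this contrast, so nothing is read from their count.

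**Figure D2:**
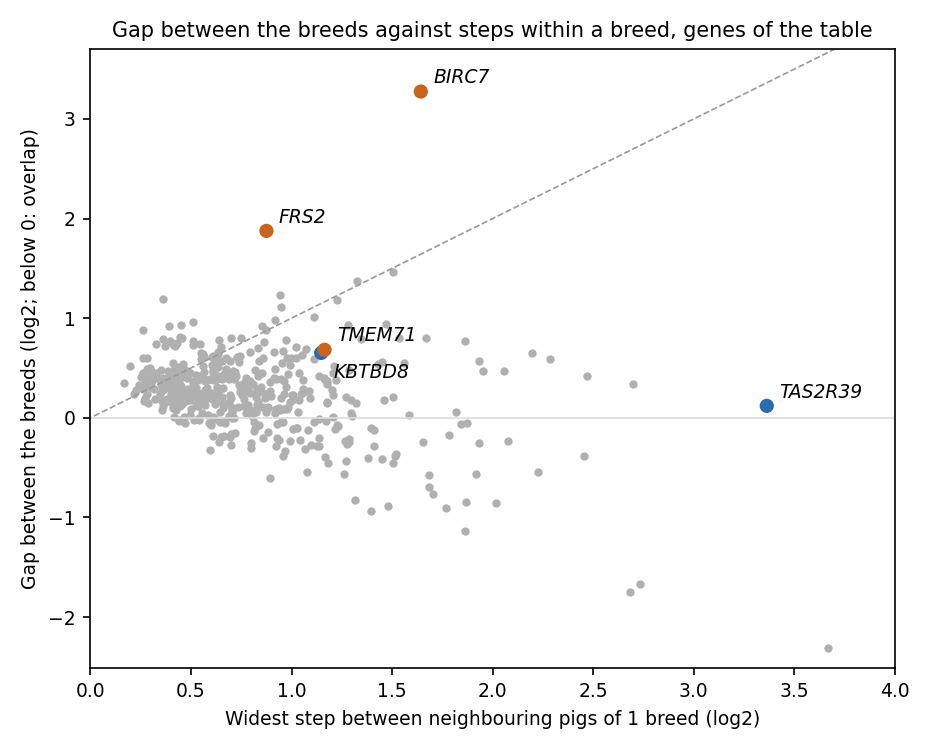
For each of the 458 genes, the distance between the nearest AL and BI pigs (vertical axis) against the widest step between neighbouring pigs of the same breed (horizontal axis), both in log2(normalized count + 1). BIRC7 and FRS2 lie above the line of equality, with distances of 3.28 and 1.88, whereas TAS2R39 lies far to the right with a step of 3.36 and a distance of 0.12.

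The distance between the nearest pigs of the breeds was set against the widest step between neighbouring pigs within a breed, in log2(normalized count + 1). For BIRC7 the distance between the breeds was 3.28, and the widest steps were 1.08 within AL and 1.64 within BI. FRS2 showed the same order, with a distance of 1.88 and steps of 0.88 and 0.85. BIRC7 and FRS2 thus had a breed distance wider than every step within a breed, which held for 7.86% of the 458 genes in the direction of AL, 8.3% in that of BI and 16.2% together. TMEM71 had a distance of 0.68 and steps of 0.71 in AL and 1.16 in BI. For KBTBD8 the distance was 0.65 and the widest step was 1.15, within AL. Neither distance was wider than the widest step, but for KBTBD8 this turned with the processing. Its distance and widest step were 1.26 and 1.22 with a median of ratios, 1.64 and 1.15 without AL 44, and 1.17 and 1.15 without BI 25, and the distance was also the wider with an upper quartile and in unscaled reads, where it was 1.51. For TMEM71 it turned without AL 52, at 1.25 and 1.16. BIRC7 and FRS2 kept the wider distance, and TAS2R39 the wider step, under all 3 scalings and without any 1 pig. TAS2R39 had a distance of 0.12 and a step of 3.36 within BI, which was the largest BI step of the table after that of MYT1L (3.67). The break of TAS2R39 lay among BI pigs and not between the breeds. Whether a variant in or near any of the 5 genes goes with its pattern was not tested, since no genotype was used here.

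**Figure D3:**
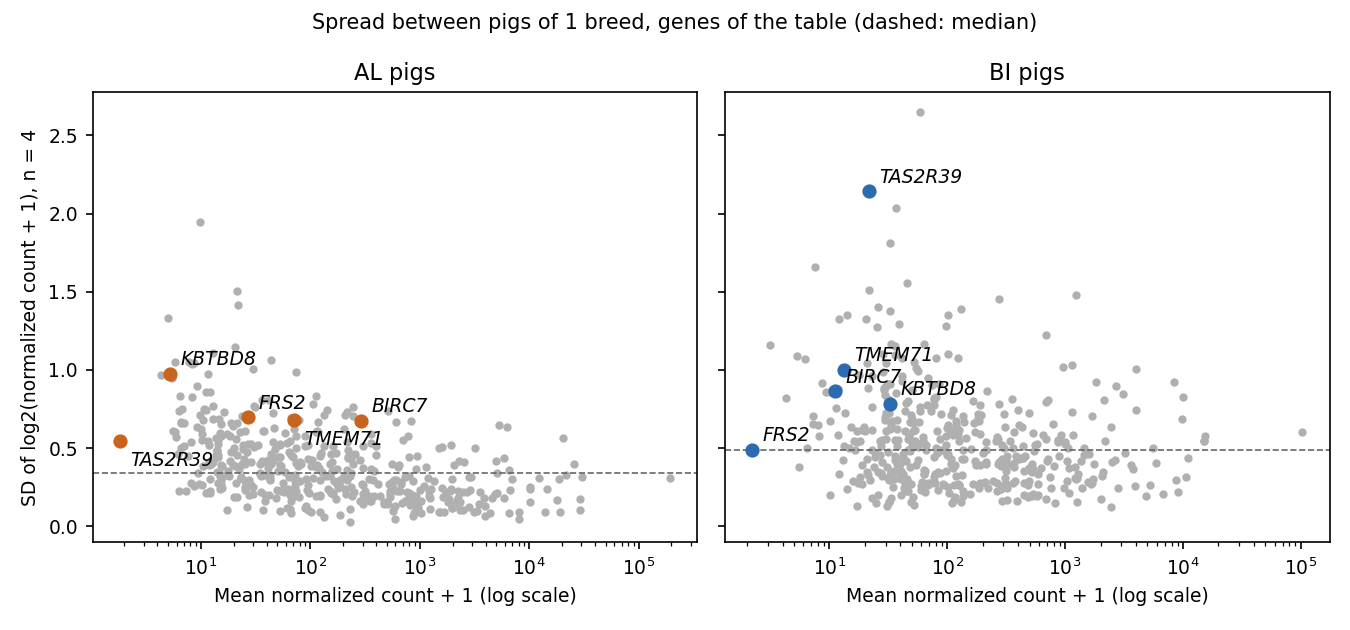
SD of log2(normalized count + 1) over the 4 pigs of each breed (vertical axis) against the mean normalized count of that breed (horizontal log axis), for the 458 genes in grey and the 5 members named. TAS2R39 has an SD of 2.15 in BI and 0.55 in AL, beside table medians of 0.48 and 0.34.

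Within a breed the SD of log2 values of each member was above the median of the table, which was 0.34 in AL and 0.48 in BI. BIRC7 had an SD of 0.68 in AL and 0.87 in BI, TMEM71 one of 0.68 in AL, and KBTBD8 one of 0.98 and 0.79. For FRS2 the SDs were 0.70 in AL and 0.49 in BI. Part of this spread is counting error. The index of dispersion of the reads is near 1 where pigs of a breed differ by counting alone, and it tends to be larger in genes with more reads. The index of FRS2 in BI was 0.761 and that of TAS2R39 in AL 0.273, so at these few reads no difference between pigs was detectable. It reached 26.4 for TAS2R39 in BI, 32.8 for BIRC7 in AL and 12.4 for TMEM71 in AL, beside medians of 4.89 in AL and 13.7 in BI over the 458 genes. The other 5 values were below those medians. They were 3.76 for FRS2 and 2.4 for KBTBD8 in AL, and 2.88 for BIRC7, 7.21 for TMEM71 and 10.4 for KBTBD8 in BI.

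The 5 genes were not the 5 largest differences of the table. By the size of the log2 FC they ranked 1 (BIRC7), 2 (FRS2), 8 (KBTBD8), 9 (TAS2R39) and 12 (TMEM71) of 458. Ranks 3 to 7 were held by genes higher in AL. These were A2M, a broad protease inhibitor of plasma (log2 FC 3.21), TXNRD2, the mitochondrial thioredoxin reductase (3.14), and C11orf1 (2.90). SCD, the desaturase that makes monounsaturated fatty acids, had a log2 FC of 2.79 and TM2D2 one of 2.75. A2M came closest to the pattern of BIRC7 and FRS2, with a lowest AL pig 3.19-fold above the highest BI pig, a BI level of 9.21% of that in AL and 0 reads in BI 25. TXNRD2 and SCD kept 12.1% and 20.2% of the AL level in BI. The median size of the log2 FC over the 458 genes was 1.19. By mean count the members were mostly at the low end of these 458 genes, with ranks of 457 (TAS2R39), 438 (FRS2), 412 (KBTBD8), 314 (TMEM71) and 197 (BIRC7).

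**Figure D4:**
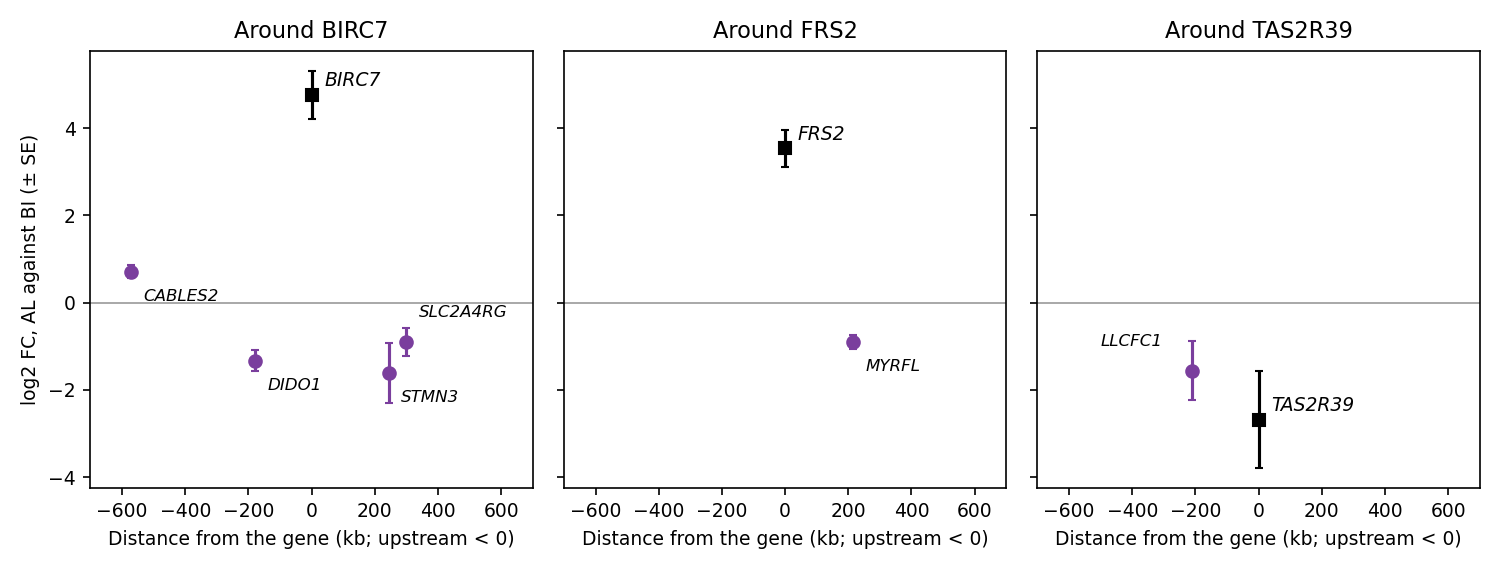
Log2 FC (AL minus BI, with SE bars, n = 4 pigs per breed) of BIRC7, FRS2 and TAS2R39 (squares at 0) and of the genes of the 458 placed within 1 Mb of them (circles), by distance along the chromosome in kb, negative upstream of the member. Beside BIRC7 at 4.77 the 4 neighbours run from −1.62 to 0.71.

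The genes near each member were compared with it, as far as they were among the 387 of 458 genes that could be placed. Around BIRC7, 4 such genes lay within 1 Mb, a number that 10.1% of the placed genes reached. Of these, 3 were higher on average in BI, against the direction of BIRC7. They were DIDO1, with a log2 FC of −1.33 and no overlap, STMN3, a stathmin that binds tubulin, at −1.62, and SLC2A4RG, a regulator of the glucose transporter gene SLC2A4, at −0.90. The last 2 overlapped between the breeds. CABLES2 was higher in AL without overlap, at 0.71, which is below the median log2 FC of the 458 genes (0.83). The only gene of the 458 placed within 1 Mb of FRS2 was MYRFL, 215 kb downstream. It was higher in BI with a log2 FC of −0.90 and no overlap. Among the 458 genes only, 3 of the 4 near BIRC7 and the 1 near FRS2 had a mean difference in the other direction. Over all 458 genes, 31.2% were higher in BI without overlap, which among these neighbours held for DIDO1 and MYRFL only. That share is not a background for the count by mean direction, which includes the overlapping STMN3 and SLC2A4RG. The annotation holds 63 protein-coding genes within 1 Mb of BIRC7 and 17 within 1 Mb of FRS2, so most neighbours were not compared.

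TAS2R39 had 1 gene of the table within 1 Mb, LLCFC1, 210 kb upstream and also higher on average in BI (log2 FC −1.56). LLCFC1 had 14.8, 39, 47.3 and 19.9 normalized counts in AL 44, 49, 52 and 63. In BI 25, 34, 36 and 37 it had 45.1, 177, 39.7 and 144. BI 34 and BI 37 were again the highest pigs, and the breeds overlapped. The same 2 pigs were highest in STMN3 near BIRC7, with 201 and 117 normalized counts beside 64.2 and 21.7 in BI 25 and BI 36. KBTBD8 and TMEM71 had no gene of the table within 1 Mb.

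The libraries were stranded according to the study's methods, but the strand setting of the counting was not stated. Without strand, genes that touch a member could add reads to it, and with the setting opposite to the library a value would hold reads of the other strand in place of the gene's own. These cases cannot be told apart for a single gene. NKAIN4 ends 642 bases downstream of BIRC7 on the opposite strand, with an authors' mean of 4.27 normalized counts over the 8 pigs, against 151 for BIRC7. PHF20L1, on the opposite strand, overlaps the body of TMEM71 and had an authors' mean of 6.48. With the setting opposite to the library, the means of NKAIN4 and PHF20L1 would not be their own RNA. These means therefore do not size what a neighbour could add. The pseudogenes LOC110260580 and LOC110260833 lie within FRS2. No exon base of BIRC7, FRS2, KBTBD8 or TAS2R39 lay under an exon of the other strand. TAS2R40, 40.9 kb from TAS2R39, had an authors' mean of 9.48. ND6, the mitochondrial protein gene encoded on the other strand from the rest, ranked 6 of 10710 genes with an authors' mean of 87627. ND5 had 16666 and COX1 2864, so ND6 stood above every other mitochondrial protein gene. The adipocyte genes PLIN1, FABP4 and ADIPOQ, which are known as abundant transcripts of fat, ranked 267, 591 and 1310. The part of the counting strand in the values of the members was not tested.

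Few relatives of the members could be followed by animal. Of 15 genes of the inhibitor of apoptosis pathway around BIRC7, 8 were in the authors' table of 10710 genes and 0 among the 458. XIAP, the best known caspase inhibitor of the family, had an authors' mean of 4.79 normalized counts and BIRC3 one of 8.64, both below BIRC7. Of 27 genes of FGF receptor signalling around FRS2, 24 were listed and 2 had values by animal. SHC1, an adaptor to Ras, was higher in AL with a log2 FC of 0.87 and no overlap, and CBL, a ubiquitin ligase of receptors, had a log2 FC of 1.22 with overlap. The listed receptors FGFR1 and FGFR3 had authors' means of 34.5 and 4.24, and FRS3, the relative of FRS2, one of 2.73. Among 15 genes of the cullin-3 adaptors and their partners, 10 were listed. KBTBD4 was the single one with values by animal, and it was higher in AL without overlap at 1.09, opposite to KBTBD8. TCOF1, a substrate of KBTBD8, had an authors' mean of 5328. Of 17 bitter taste genes, 4 were listed and 0 were among the 458, the highest being ITPR3 at 253. These values of SHC1, CBL and KBTBD4 stand beside a median log2 FC of 0.83 over all 458 genes, which was 0.18 with an upper-quartile scaling.

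Markers of cell types were read for the same samples. All 7 adipocyte markers were in the authors' table, among them PLIN1, the lipid droplet coat protein, with a mean of 1567, FABP4 with 673 and ADIPOQ, the hormone adiponectin, with 173. FABP4 was higher in AL without overlap at a log2 FC of 1.10, and LEP overlapped at 1.37. Of the 7, only these 2 had values by animal, which required that the authors had called them different. They therefore do not give the direction of the whole list. The study's text describes ADIPOQ as numerically higher in BI but not statistically different. Of 8 melanocyte markers, 3 were listed, with SOX10 at 865 and TYR and MITF at 4.38 and 4.17, while PMEL, MLANA, TYRP1, DCT and KIT were not listed. This list bears on BIRC7, which is known for its expression in melanoma. For skeletal muscle 3 of 6 markers were listed, and MYH7, the slow myosin, was higher on average in BI at −2.04 with overlap. Its normalized counts were 40.5, 19.9, 4.72 and 31.7 in BI 25, 34, 36 and 37. Of the keratinocyte, leukocyte, T and B cell, endothelial, fibroblast and mast cell markers, 1 of 6, 4 of 5, 0 of 4, 3 of 4, 2 of 3 and 1 of 3 were listed, and 0 of them had values by animal. The part of these cell types in the differences of the members was not tested.

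Likeness to other genes was described by the Pearson correlation of log2 values over the 8 pigs after each breed was centred on its own mean, which removes the breed difference. These points share libraries and size factors, and each member is given with its 3 most alike genes. For BIRC7 they were ENSSSCG00000031003 (0.99), ARVCF, a catenin of cell junctions (0.95), and STRBP (0.93). FRS2 was most like EGFL7, a factor secreted by endothelium (0.93), MTFR1 (0.89) and WDR38 (0.88). TMEM71 went with CPSF2, a subunit of the polyadenylation machinery (0.94), EIF1AD (0.92) and MXD3 (0.91). KBTBD8 went with DLL4, a Notch ligand (0.97), LAMB1, a laminin chain (0.94), and MYADM (0.92). Of these, LAMB1 was higher in AL at a log2 FC of 1.03, opposite to KBTBD8. TAS2R39 was most like ID1, an inhibitor of DNA binding by basic helix-loop-helix factors (0.95), NPR2, a natriuretic peptide receptor (0.94), and PMP2, a fatty acid binding protein of myelin (0.86). Between the members themselves r ran from −0.24 for TAS2R39 with TMEM71 to 0.66 for BIRC7 with FRS2.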

How the data were processed

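Reads were trimmed, mapped to Sscrofa11.1 and assigned to genes by the authors. The submitters' processing notes name Trim Galore 0.5.0, HISAT2 2.1.0, SAMtools 1.9, HTSeq 0.11.1 and DESeq2. The deposited signal of each pig is a read count scaled with the size factor that DESeq2 set for the library, and it was given for 458 genes called by the authors. A further deposited table holds the mean signal of 10710 genes, used here as the authors' mean. Both tables also hold the authors' log2 fold changes, standard errors and p-values, which were not used.

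Reads were recovered by dividing each value by the step of its pig. Exact Poisson intervals (95%) cover counting error only, and 0 reads were taken to allow 3. Log2 values used a pseudocount of 1, so that changes of low genes are understated. The size of the log2 FC, the ratio of the nearest pigs and the level of the lower breed were computed for all 458 genes. Genes named besides the members are the 5 next largest differences without overlap, table genes within 1 Mb, annotated genes within 5 kb, the 3 most alike genes of each member, and those of fixed pathway and marker lists. MYT1L, and the genes of the lists without values by animal, were named after their values were seen. The members and lists were chosen with earlier results of these data known. The alternatives were pseudocounts of 0.1 and 10, other scalings, ratios of means, medians, a mean of at least 50, limma, and leaving out each pig. Breed distances against steps within a breed were recomputed under other scalings and without each pig after seeing the data. The log2 FC, the count of genes without overlap and the limma calls were first tested on simulated data, and the other calculations were not. Some sequence is not reported here. Replicates are separate pigs by their labelled numbers. Python 3.11.15, NumPy 2.4.6, pandas 2.3.3, SciPy 1.17.1, Matplotlib 3.10.9, R 4.3.3 and limma 3.58.1 were used.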

Additional observations from a re-analysis of the deposited data

Results flagged for a closer look

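In 74 groups of 4 pigs tested over the genes named, 5 held a pig far from the other 3 of its breed, where chance alone flags about 1 in 20 groups. BIRC7 in BI 25 was at 3.06 normalized counts (4 reads), below the other BI pigs at 11.7 to 13.3. Its counting interval (0.833 to 7.83 normalized counts) met that of each other BI pig. FRS2 in BI 37 was at 2.5 normalized counts (3 reads), above the other BI pigs, which had 1 read each. A difference of 2 reads is within counting error, as the intervals of these pigs overlap. EIF1AD in AL 52 was at 1331, below the other AL pigs at 1714 to 1753. NPR2 in AL 44 was at 78.5, below the other AL pigs at 93 to 94.6. LEP in BI 36 was at 86, above the other BI pigs at 24.2 to 32.1.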

How the results depend on the processing

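No direction of a member turned under any alternative run. The log2 FC of BIRC7 was 3.85 with a pseudocount of 10. That of FRS2 was 4.35 with a pseudocount of 0.1, 1.61 with one of 10 and 4.40 as the ratio of means. KBTBD8 had −1.48 with a pseudocount of 10, and TAS2R39 had −1.18 with a pseudocount of 10, −3.85 with one of 0.1 and −4.65 as the ratio of means. The ratio of the nearest pigs was 5.47 for BIRC7 and 2.67 for FRS2 in unscaled reads, and for KBTBD8 it was 3.08 with an upper quartile and 3.17 in unscaled reads. The BI level of BIRC7 was 5.17% of that in AL with an upper quartile. Leaving out each pig in turn moved the log2 FC to 4.34 to 5.1 for BIRC7, 3.31 to 3.86 for FRS2, 2.15 to 2.86 for TMEM71, −3.1 to −2.3 for KBTBD8 and −3.4 to −2.06 for TAS2R39. The ratio of the nearest pigs then ran from 10.3 to 21.9 for BIRC7, 4.74 to 12.5 for FRS2, 1.63 to 2.44 for TMEM71, 1.63 to 3.65 for KBTBD8 and 1.15 to 2.13 for TAS2R39. Another scaling moved the median log2 FC of the 458 genes from 0.83 to 0.31 with a median of ratios, 0.18 with an upper quartile and 0.27 in unscaled reads. The median-of-ratios and upper-quartile factors rest on the 458 called genes alone and may take up part of the breed difference. The genes without overlap were 221 higher in AL and 143 in BI. They were 102 and 171 with a median of ratios, 60 and 176 with an upper quartile, 36 and 176 in unscaled reads, 178 and 65 among genes with a mean of at least 50, and 222 to 245 and 144 to 166 without a pig. At an adjusted p of 0.05 limma called 262 and 193, in a table that holds only genes the authors had called. The edgeR alternative was not run, because too few low values were left to check the recovered reads in every pig. No paired analysis was possible because the breeds share no pig number. At 1 to 3 reads per pig for FRS2 in BI and 0 or 1 for TAS2R39 in AL, counting error limits both levels.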
